A study of Mus musculus with 30 samples.

Results

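The genes described here are 37 interferon-stimulated genes of the mouse, listed by symbol and matched to the Ensembl gene identifiers of the count files. All 37 were found among the 50686 genes in the files, and all 37 were tested in every comparison below. They were grouped by role into 4 sensors of viral RNA and DNA, 4 members of the IFIT family, 5 of the OAS family, 3 genes of the ISG15 system, 4 transcription factors, 12 other antiviral effectors, 4 genes of the IFI series and 1 chemokine.

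Type I interferons are secreted by cells that detect foreign or misplaced nucleic acid. They bind the receptor made of Ifnar1 and Ifnar2, and the kinases Jak1 and Tyk2 then activate transcription factors, among them Stat2, which works with Irf9. These factors bind a short repeat, the interferon-stimulated response element, in the promoters of genes that block viral replication, sense nucleic acid or tune the response itself. In the thyroid, interferon treatment in patients is known as a trigger of autoimmune thyroiditis, and thyroid cells carry the receptor.

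Thyroid RNA was sequenced from C57BL/6 mice in 30 libraries, 3 for each of 10 groups. One set of 24 libraries held FAD4T and wild-type mice, males and females, of 2 and of 8 months. The series design also lists 3 wild-type males of 2 months beside 3 of 18 months, the ageing set here. FAD4T is a transgenic model of familial Alzheimer's disease; the labels give neither its transgenes nor their promoter, nor whether a library pooled glands, and all 10 groups share the strain and tissue labels. The series design lists 3 mice per group. The labels number the wild-type males of 2 months 1 to 6 without saying which belong to which set. It is assumed here that numbers 1 to 3 were the controls of the FAD4T males and numbers 4 to 6 those of the males of 18 months, and results of both choices are given for 18 months. The p-values rest on the spread over these 3 libraries a group.

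Library totals were 14083958 to 20256049 counts. Tg, which encodes thyroglobulin, took 4.64% to 27.0% of the counts of a library, so the thyroid label was met in every library. Markers of neighbouring tissue varied widely. The mean log2(CPM + 1) of 9 thymocyte genes was above 2 in 5 libraries, all FAD4T: numbers 2 and 3 of the males of 2 months, numbers 1 and 2 of the females of 2 months and number 1 of the males of 8 months. Wild-type male library 2 of 18 months (1.87) and wild-type female library 1 of 2 months (1.83) were just under this cut. Wild-type female library 3 of 8 months was at 1.41, and all remaining libraries were at 0.874 or lower. Wild-type female library 1 of 2 months stood apart by its liver genes (level 8.17). CPM is the usual depth-scaled count, here with TMM-adjusted library totals.

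Promoter sequence of the members was examined in RefSeq windows of GRCm38.p6, from 250 bases before to 50 bases after a gene's start. At least 1 window was at hand for 27 members, 31 windows in all, since 4 members have more than 1. The core of the response element, searched as TTTC, any 2 bases and TTTC again, on both strands and with overlapping matches counted, was present in a window of 16 of these 27 members (59.3%), against 3.99% of the 27025 genes with a window and 3.44% of all 32851 windows. The STAT dimer motif TTCNNNGAA, which is its own reverse complement, was present in 7 of the 27 members (25.9%), against 9.55% of genes and 8.30% of all windows. A match is a string of letters and was not tested for binding.

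The following stretches show the matches for Ifit3, Ifit3b, Ifit1, Isg15 and Cxcl10, in capitals and read 5′ to 3′ on the strand of the gene. They are shown for their different arrangements of the motif: Ifit3 and Ifit3b were called lower in both comparisons of 18 months below, their neighbour Ifit1 in neither, Isg15 was called lower in 1 of the 2, and Cxcl10 higher in 1 of the 2. Rtp4, also lower in both, had no window. On that strand Isg15 and Cxcl10 carry the motif as its reverse complement.
Ifit3, chr19:34583361-34583428, plus strand: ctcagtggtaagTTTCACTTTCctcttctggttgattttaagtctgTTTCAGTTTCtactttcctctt
Ifit3b, chr19:34607757-34607824, plus strand: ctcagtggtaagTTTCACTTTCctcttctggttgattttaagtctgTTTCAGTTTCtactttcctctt
Ifit1, chr19:34640773-34640825, plus strand: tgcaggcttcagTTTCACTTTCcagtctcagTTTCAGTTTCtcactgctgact
Isg15, chr4:156200863-156200908, minus strand: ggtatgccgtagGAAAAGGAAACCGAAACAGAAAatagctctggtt
Cxcl10, chr5:92349081-92349114, minus strand: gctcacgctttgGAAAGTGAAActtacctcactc

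Ifit3 and Ifit3b had the same 68 bases here, with the first match 156 and 188 bases before the start. Ifit1 held 2 copies, the first 104 bases before its start. Isg15 held 3 overlapping copies in 1 run, and Cxcl10 held a single copy 213 bases before its start. Ifit3 and Ifit3b are also near-identical as transcripts, at 98.0% of 1697 aligned bases, so the counting could split reads between them and their separate values are uncertain.

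All members gave counts in all 30 libraries, and 24 of the 37 averaged above 10 CPM. Per exon length, as CPM per kilobase of exon (RPKM, mean of 30 libraries), Ifi27 (149) and Ifi27l2a (145) were the most abundant. Both encode small hydrophobic proteins of the ISG12 family. Ifitm3, a membrane protein that blocks viral entry, followed at 81.2, and Bst2, the tetherin that holds budding virus at the cell surface, at 39.4. Ifi35 had 19.3 RPKM. At the lower end stood Oas3 (0.111), Oasl1 (0.624), Zbp1 (0.695), Mx1 (0.737) and Ifi44 (0.895). The lowest count of Oas3 in a library was 3, so its fold changes carried wide errors.

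The members did not move as 1 block. The ratio of the highest to the lowest of the 10 group means was above 2 for 27 members and above 4 for 8 members, with a median of 2.45. The group of highest mean CPM was wild-type females of 2 months for 20 members, and the group of lowest mean was wild-type males of 18 months for 18 members. Cxcl10 and Cmpk2 differed from that order: Cxcl10 was highest in wild-type females of 8 months, and Cmpk2, a mitochondrial nucleotide kinase, was highest in wild-type males of 18 months.

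**Figure D1:**
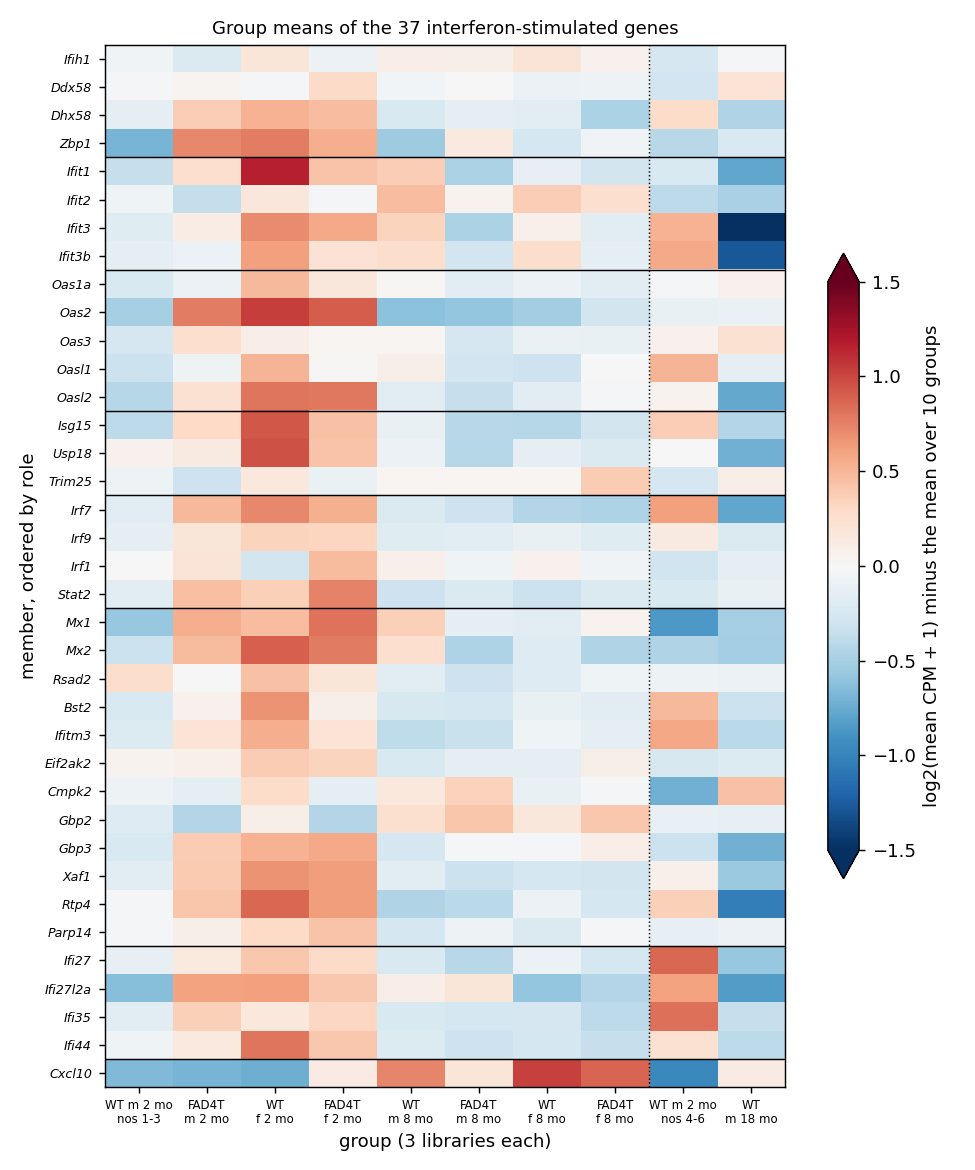
Group means of the 37 members (rows, ordered by role, black lines between roles) in the 10 groups (columns), coloured by log2(mean CPM + 1) minus the mean over groups, with the ageing set right of the dotted line. Most rows are red in females of 2 months and blue in males of 18 months, and the bottom row, Cxcl10, runs from blue at 2 months to red at 8 months except in the FAD4T females of 2 months.

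The mean level of the members, as mean log2(CPM + 1) ± SD of 3 libraries, was 4.45 ± 0.338 in wild-type and 4.35 ± 0.144 in FAD4T females of 2 months. It was 3.81 ± 0.144 in wild-type males of 2 months numbered 1 to 3, 4.03 ± 0.162 in those numbered 4 to 6 and 4.16 ± 0.105 in FAD4T males of 2 months. At 8 months the 4 groups lay between 3.84 ± 0.134 and 3.97 ± 0.186, closer together than the libraries within a group. The lowest level was 3.64 ± 0.11, in males of 18 months. Wild-type females of 2 months were the most uneven group, with 4.65, 4.06 and 4.64 in libraries 1, 2 and 3.

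**Figure D2:**
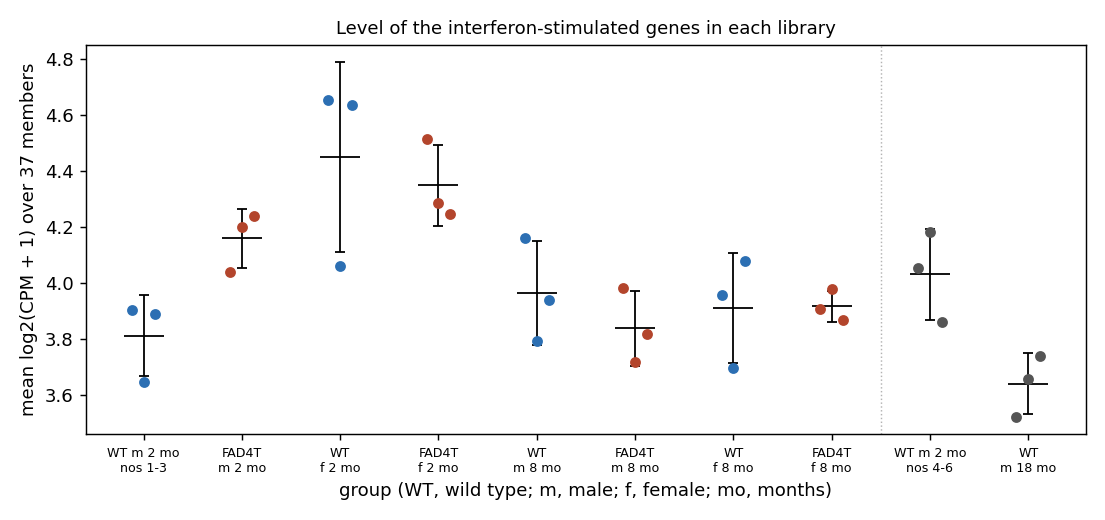
Mean log2(CPM + 1) of the 37 members in each library (points), with the mean and SD of each group of 3 in black; blue, wild type; red, FAD4T; grey, ageing set. Wild-type female library 2 of 2 months (4.06) lies below the other libraries of its group, and the 3 libraries of 18 months reach no higher than 3.74.

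Interferon transcripts were at or near 0 in these libraries; interferon protein, which can come from outside the gland, was not measured. Of 10 interferon genes in a list of other genes of the pathway, 5 had no count in any library and the highest count of any in a library was 4. Ifng, the type II interferon, gave 26 counts in all, spread over 13 libraries. A count of 0 in a library allows up to 3 counts, so transcripts of these 10 genes below that were not detectable at this depth.

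Age was the condition with the most calls. In wild-type males of 18 months against those of 2 months numbered 4 to 6, 13 members fell and 3 rose (edgeR quasi-likelihood test, adjusted p under 0.05 over 16283 genes). Against these 16 calls, 35.9% of all genes tested were called, 18.8% lower and 17.1% higher. At an unadjusted p under 0.05, 16 members were lower and 4 higher, against 24% and 22.4% of genes. Members were lower in 24 of 37 cases, with a median log2 fold change of -0.37, beside -0.01 over all genes. The 18-month libraries all lay below the 2-month ones for 17 members and all above for 4, against 26% and 25.4% of all genes tested.

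Of the 4 IFIT genes, which bind foreign RNA and block its translation, Ifit3 and Ifit3b fell at 18 months. Ifit3 (chr19:34583531-34588731, GRCm38) had 40.7, 44.1 and 30.4 CPM in the 2-month libraries and 6.97, 4.40 and 14.6 CPM in the 18-month ones. The highest 18-month library was below the lowest 2-month library by more than 2-fold. Ifit3 fell by 2.17 ± 0.45 (log2, SE; adjusted p = 0.0145), and the call was lost without 2-month library 5 (0.0502) or 18-month library 1 (0.0731), and with no filter on low counts (0.0634). Ifit3b fell by 2.22 ± 0.33 (adjusted p = 0.00191), from 11.4, 13.2 and 9.89 to 1.41, 2.77 and 3.26 CPM. Ifit1 and Ifit2 did not pass, at log2 fold changes of -0.68 ± 0.33 and -0.12 ± 0.26.

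In the IFI series 3 of 4 members fell. Ifi27 had 301.7, 453.3 and 385.1 CPM at 2 months and 134.9, 145.0 and 143.4 CPM at 18 months. The groups were far apart, and Ifi27 fell by 1.44 ± 0.17 on the log2 scale (adjusted p = 0.00122). Its neighbour Ifi27l2a had 106.3, 102.2 and 79.3 CPM at 2 months and 22.5, 45.0 and 36.2 CPM at 18 months, a fall of 1.49 ± 0.26 (adjusted p = 0.00486). Ifi35, a leucine-zipper protein that modulates the antiviral response, went from 44.6, 73.9 and 54.4 CPM to 27.6, 24.1 and 23.4 CPM, and fell by 1.22 ± 0.20 (adjusted p = 0.00259). Of the exon bases of Ifi35, 16.8% overlap a gene on the other strand, so its counts, made without strand, are uncertain. Ifi44 had a log2 fold change of -0.76 ± 0.29 (adjusted p = 0.0654).

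Among the transcription factors Irf7 alone was called. Irf7, the factor that amplifies type I interferon output, had 23.5, 29.5 and 18.0 CPM at 2 months and 7.08, 7.96 and 10.004 CPM at 18 months. It fell by 1.52 ± 0.23 (adjusted p = 0.00208), while Irf9 was at -0.37 ± 0.14 (adjusted p = 0.0773) and Stat2 and Irf1 at 0.11 ± 0.14 and 0.16 ± 0.16.

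Other effectors split between falls and a rise. Rtp4, a chaperone that restrains flaviviruses, had 13.7, 20.3 and 12.1 CPM at 2 months and 4.59, 6.39 and 4.63 CPM at 18 months, and fell by 1.58 ± 0.26 (adjusted p = 0.00296). Ifitm3 had 67.4, 88.9 and 85.2 CPM at 2 months and 38.7, 46.1 and 35.7 CPM at 18 months, a fall of 1.02 ± 0.15 (adjusted p = 0.00199). Neither gene's groups overlapped. Of the exon bases of Rtp4, 13.9% are shared with a gene on the same strand, so part of its counts is uncertain. Bst2 fell by 0.85 ± 0.17 (adjusted p = 0.00666), from 46.0, 58.0 and 42.9 CPM to 32.8, 24.5 and 25.0 CPM, and Xaf1, a pro-apoptotic protein, fell by 0.68 ± 0.22 (0.0402). Cmpk2 rose, from 7.97, 6.504 and 7.02 CPM to 13.5, 16.2 and 21.9 CPM, by 1.25 ± 0.22 on the log2 scale (adjusted p = 0.00345). Cmpk2 lies beside Rsad2, which encodes viperin, in the genome, and Rsad2 was at -0.03 ± 0.31.

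The sensors also split. Ddx58, which encodes the RNA sensor RIG-I, rose from 52.5, 51.3 and 47.6 CPM to 69.6, 63.4 and 81.0 CPM, by 0.49 ± 0.13 (adjusted p = 0.0166). Dhx58, which encodes its relative LGP2, fell by 0.88 ± 0.29 (adjusted p = 0.0418), and Ifih1, which encodes MDA5, was at 0.21 ± 0.15. Isg15, the ubiquitin-like modifier, had 6.56, 6.97 and 5.68 CPM at 2 months and 2.92, 3.86 and 2.92 CPM at 18 months, a fall of 1.0 ± 0.26 on the log2 scale (adjusted p = 0.0168). Its deconjugating enzyme Usp18 was at -0.94 ± 0.34 (adjusted p = 0.0559), just outside the threshold. Oasl2 fell by 0.88 ± 0.27 (adjusted p = 0.0374), the only OAS member called, and its 2 groups overlapped.

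Cxcl10, the chemokine that draws T cells through Cxcr3, moved against most members. It had 4.01, 2.66 and 3.30 CPM at 2 months and 8.86, 6.81 and 9.03 CPM at 18 months, a rise of 1.29 ± 0.26 on the log2 scale (adjusted p = 0.00587). Of the 16 calls, 10 held without each library in turn: Bst2, Cmpk2, Cxcl10, Ifi27, Ifi27l2a, Ifi35, Ifit3b, Ifitm3, Irf7 and Rtp4. The other 6 were lost without at least 1 library: Ddx58, Dhx58, Ifit3, Isg15, Oasl2 and Xaf1. Of these, 18-month library 1 ended the calls of Dhx58, Ifit3, Isg15, Oasl2 and Xaf1 (adjusted p from 0.0534 to 0.119) and 2-month library 5 those of the same 5 members (0.0502 to 0.178). Dhx58 was also lost without 2-month library 4 (0.0878) or 18-month library 2 (0.106), as was Oasl2 (0.0972 and 0.110). Xaf1 was lost without 2-month library 6 (0.0642) or 18-month library 2 (0.139), and Ddx58 without 2-month library 6 (0.0539) or 18-month library 3 (0.0577). Calls over all genes in these left-out fits are not given here, so the losses cannot be read as particular to the members.

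Of 41 other genes of the pathway reported, 30 were tested at 18 months against numbers 4 to 6, and 6 rose and 4 fell. These 33.3% called lie beside 35.9% of all genes. The receptor chain Ifnar1 rose by 0.76 ± 0.11 (adjusted p = 0.00208) and Ifnar2 fell by 0.58 ± 0.11 (0.00558). The receptor kinase Jak1 rose by 0.59 ± 0.12 (0.00542). Socs1, which brakes the pathway at the receptor kinases, rose by 1.05 ± 0.26 (0.015). Adar, the RNA editor that keeps self RNA from the sensors, rose by 0.76 ± 0.15 (0.00495), Tbk1 by 0.48 ± 0.14 (0.0262) and Tlr9 by 2.07 ± 0.46 (0.00917), while Samhd1 fell by 0.69 ± 0.15 (0.00772), Irf3 by 0.48 ± 0.14 (0.0231) and Il10rb by 0.40 ± 0.13 (0.0446). Against numbers 1 to 3, 4 of the 30 rose and 1 fell, beside 4.48% and 4.97% of all genes, and only Ifnar1 (0.36 ± 0.12, adjusted p = 0.0479), Socs1 (1.22 ± 0.37, 0.0364) and Adar (0.45 ± 0.14, 0.0492) were called in the same direction in both. None of the 4 falls was called there: Samhd1 was at -0.04 ± 0.15, Irf3 at -0.08 ± 0.21, Ifnar2 at -0.25 ± 0.14 and Il10rb at -0.33 ± 0.16.

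Cell-type markers moved beside these changes. Mean log2(CPM + 1) of the 4 adipocyte markers was 3.93 to 5.19 at 18 months and 6.34 to 6.83 at 2 months, with 2 of 4 called lower. That of the 4 endothelial markers was 5.69 to 6.31 against 6.35 to 6.69, with 2 of 4 lower, and that of the 6 macrophage markers 4.75 to 5.18 against 4.12 to 4.90, with 2 of 6 called higher and 3 of 6 lower but not called. The summed CPM of 5 B cell markers was 9.03 to 13.9 against 15.9 to 21.1, with 1 of 3 tested called lower. The level of 4 liver markers was 0.15 to 0.40 against 1.25 to 1.81, and both of those tested were called lower. Of the T and NK cell markers 2 of 6 tested were called higher, and of the 4 plasmacytoid dendritic cell markers 1, with overlapping levels in both lists. No marker of these lists was at 0. Their part in the changes of the members was not tested, and in bulk RNA fewer cells of a type and less RNA per cell cannot be told apart.

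The 2 sets of wild-type males of 2 months were compared with each other, as they carry the same labels. Numbers 4 to 6 were higher than numbers 1 to 3 in 7 members and lower in 0 (edgeR, adjusted p under 0.05), against 10.2% and 11.5% of 18799 genes tested and 21.6% in all. At an unadjusted p under 0.05, 9 members were higher and 3 lower, against 16.7% and 18.2% of genes, and DESeq2 also called 7 higher and 0 lower, beside 25% of genes. For 12 members numbers 4 to 6 all lay above numbers 1 to 3 and for 3 all below, against 19.9% and 18.8% of genes. The 7 were Ifi27l2a (1.23 ± 0.30), Oasl1 (1.29 ± 0.40), Ifi35 (0.99 ± 0.19), Ifi27 (0.95 ± 0.15), Irf7 (0.79 ± 0.26), Ifitm3 (0.78 ± 0.26) and Bst2 (0.71 ± 0.16), as log2 differences. Without library 5 or library 2 the count was 4. Calls over all genes in those 2 fits are not given here, so that count cannot be set against a share. The adipocyte level was 6.34 to 6.83 in numbers 4 to 6 and 5.16 to 5.92 in numbers 1 to 3. Of the 4 adipocyte markers 2 were called higher. The level of 5 skeletal muscle markers was 9.12 to 11.96 and 1.08 to 8.75, with 0 called. That of 4 liver markers was 1.25 to 1.81 and 0.26 to 0.68, also with 0 called. Of 6 macrophage markers 2 were called higher and 1 lower, at overlapping levels (4.12 to 4.90 and 4.11 to 4.64). The summed CPM of the 5 B cell markers was 15.9 to 21.1 and 8.77 to 13.6. No marker of these lists was at 0, and their part in the difference was not tested. The labels give these 2 sets no other difference than the number.

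The 18-month libraries were therefore also set against numbers 1 to 3, a comparison added after the data were seen that shares its 18-month libraries with the one above. It came from a fit of all 30 libraries (18799 genes), and the one against numbers 4 to 6 from a fit of 6 (16283 genes). Calls in the 2 comparisons thus rest on different fits. Here 4 members fell and 0 rose, against 4.97% and 4.48% of genes tested and 9.45% in all: Rtp4 by 1.15 ± 0.23 (adjusted p = 0.00388), Ifit3b by 1.43 ± 0.34 (0.00994), Ifit3 by 1.43 ± 0.40 (0.0265) and Usp18 by 1.01 ± 0.31 (0.0391). Their values in numbers 1 to 3 were 13.3, 8.31 and 12.7 CPM for Rtp4 and 25.4, 20.1 and 24.4 CPM for Ifit3, all above the 18-month values. At an unadjusted p under 0.05, 1 member was higher and 6 lower, against 12.1% and 12.8% of genes, and DESeq2 called 1 higher and 5 lower, beside 13.4% of genes. All 18-month libraries lay below numbers 1 to 3 for 9 members and above for 3, against 14.7% and 15.2% of genes. Of the 13 members that fell against numbers 4 to 6, 5 had all 18-month libraries below numbers 1 to 3 as well (Dhx58, Ifi27, Ifit3, Ifit3b and Rtp4), and 6 were among those that differed between the 2-month sets. Cxcl10 was at 0.91 ± 0.30 (adjusted p = 0.0542), and Bst2 and Isg15 were at -0.10 ± 0.16 and -0.06 ± 0.38 against numbers 1 to 3. Without 18-month library 1 only Rtp4 was called, and without 18-month library 2, or 2-month library 1 or 3, the count was 2. How many of all genes were called in these left-out fits is not given here, so the counts cannot be set against a share. Here too marker levels differed, as 5.69 to 6.31 against 6.53 to 6.79 for endothelial markers (1 of 4 called lower) and 4.75 to 5.18 against 4.11 to 4.64 for macrophage markers (1 of 6 called higher). Skeletal muscle markers were at 8.83 to 11.6 against 1.08 to 8.75 and T and NK cell markers at 1.21 to 1.70 against 0.77 to 1.14, with 0 called. Their part was not tested.

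**Figure D3:**
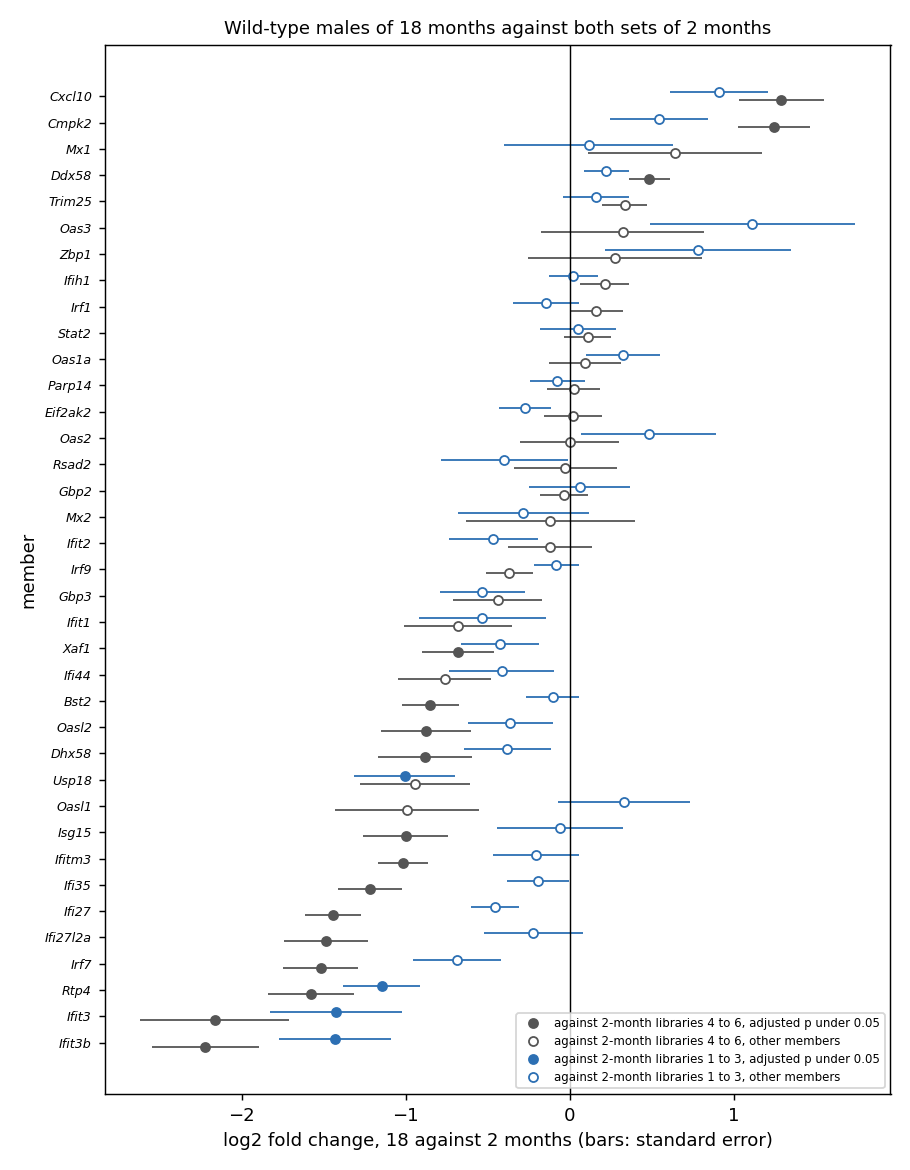
Log2 fold changes with standard errors of the 37 members in wild-type males of 18 months, against 2-month libraries 4 to 6 (grey) and 1 to 3 (blue), with filled points at an adjusted p under 0.05. Ifit3, Ifit3b and Rtp4 are filled in both colours, and Bst2, Isg15, Ifi35 and Ifi27l2a lie near 0 in blue only.

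From 2 to 8 months Cxcl10 rose in wild-type mice of both sexes. Males had 5.25, 2.77 and 5.08 CPM at 2 months and 15.9, 10.6 and 12.5 CPM at 8 months. Females had 3.66, 5.61 and 3.06 CPM at 2 months and 16.8, 11.5 and 20.3 CPM at 8 months. The ages did not overlap in either sex. The log2 rise was 1.57 ± 0.32 in males (adjusted p = 0.0237) and 1.99 ± 0.32 in females (adjusted p = 0.00811), and its difference between the sexes did not pass (-0.42). In males the call was lost without any single 2-month library, or 8-month library 1 or 3 (adjusted p from 0.0623 to 0.127), and in females without 2-month library 3 (0.0732) or with only the 2 groups in the fit (0.286). The level of 4 liver markers was 4.71 to 5.73 at 8 months and 0.26 to 0.68 at 2 months in males, and 4.29 to 5.89 and 1.04 to 8.17 in females. That of the 4 endothelial markers was 5.87 to 6.33 and 6.53 to 6.79 in males, and the part of these markers was not tested. Of the exon bases of Cxcl10, 5.91% overlap Art3 on the other strand.

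In wild-type females 32 of 37 members were lower at 8 than at 2 months, with a median log2 fold change of -0.64 beside 0.00 over all genes, but only Bst2 and Cxcl10 were called: 1 lower and 1 higher, against 0.0487% and 0.205% of 18493 genes and 0.254% in all. Bst2 fell by 0.80 ± 0.15 (adjusted p = 0.0246), from 65.6, 48.2 and 54.0 to 34.3, 29.6 and 31.994 CPM, and this call was lost without 2-month library 3 (0.091) or 8-month library 2 (0.149) or 3 (0.102), and with only the 2 groups in the fit (0.391). At an unadjusted p under 0.05, 24 members were lower and 1 higher, against 4.37% and 4.17% of genes, and for 19 the 8-month libraries all lay below the 2-month ones, against 6.71%. Rtp4 was at -1.01 ± 0.22 (adjusted p = 0.0525), Irf7, with 36.2, 14.7 and 25.5 CPM at 2 months and 13.2, 8.78 and 10.5 CPM at 8 months, at -1.23 ± 0.26 (0.0541) and Oas2, which makes the second messenger of RNase L, at -1.79 ± 0.43 (0.0836).

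The females' result leaned on the 2-month group. Without its library 2, 10 members were called, and without its library 3 none was. Without library 1, which carried the liver transcripts, 2 were called and the median was -0.53. The share of all genes called in these left-out fits is not given, so the counts cannot be set against it. DESeq2 called 14, of which 13 were lower, beside 267 genes in all (1.44%). In males 19 of 37 members were higher and 18 lower, with a median of 0.07, and only Cxcl10 was called, against 0.422% of genes higher, 0.27% lower and 0.692% in all. At an unadjusted p under 0.05, 5 members were higher and 1 lower in males, against 6.15% and 5.52% of genes, and 5 and 2 did not overlap, against 11.9% and 9.32%. The difference of the age change between sexes, added after the data were seen, was positive for 35 of 37 members with a median of 0.70, but 0 were called by edgeR against 0.00541% of genes, 17 had an unadjusted p under 0.05 (3.38% of genes) and DESeq2 called 4, beside 0.665% of genes.

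Sex was compared in wild-type mice. At 2 months 34 of 37 members were lower in males than in females, with a median log2 difference of -0.79 beside -0.01 over all genes. Bst2 and Oasl2 were called lower (2 members, against 0.0379% of genes lower and 0.0757% in all) and 0 higher, also at an unadjusted p under 0.05 and by DESeq2. Bst2 had 30.5, 21.6 and 36.2 CPM in males and 65.6, 48.2 and 54.0 CPM in females, a difference of -0.93 ± 0.15 (adjusted p = 0.0136). Oasl2, an OAS-like protein with ubiquitin-like domains, had 18.1, 12.4 and 19.0 CPM in males and 43.3, 27.0 and 50.0 CPM in females, a difference of -1.28 ± 0.24 (adjusted p = 0.0365). In both genes each male library of numbers 1 to 3 was below each female one. The males numbered 4 to 6, which are not in this comparison, overlapped the females in both genes, with 46.0, 58.0 and 42.9 CPM for Bst2 and 23.8, 29.9 and 16.3 CPM for Oasl2. Bst2 was called higher in these males than in numbers 1 to 3 (above), so the sex difference is one against numbers 1 to 3.

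At an unadjusted p under 0.05, 25 members were lower in males at 2 months, against 4.42% of genes, and 16 did not overlap, against 4.41%. Ifit1 had 6.09, 4.71 and 5.78 CPM in males and 20.3, 8.32 and 24.2 CPM in females, a difference of -1.68 ± 0.40 that did not pass (adjusted p = 0.107). Female library 2 was the lowest of its group here too. Without it 13 members were called lower, and without female library 1 or male library 1 none was, with a median of -0.58 without female library 1. Without male library 2 or 3 only Bst2 was called. For these left-out fits the share of all genes called is not given, so the counts cannot be read as particular to the members. With only the 2 groups in the fit neither was called (adjusted p of 0.724 for Bst2 and 0.549 for Oasl2). DESeq2 called 14, all lower in males, beside 271 genes in all (1.47%). Adipocyte markers stood at 5.16 to 5.92 in males and 6.38 to 6.74 in females, and liver markers at 0.26 to 0.68 and 1.04 to 8.17; their part was not tested.

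At 8 months the sexes were close. The median difference was 0.00, and 18 members were higher and 19 lower in males. EdgeR called 0 members, against 0.27% of genes, 0.0919% higher and 0.178% lower. DESeq2 called 0 as well, against 0.519% of genes. One member, Ifi27l2a, was higher in males at an unadjusted p under 0.05 and 0 lower, against 2.07% and 3.02% of genes, at 0.68 ± 0.30 (61.1, 79.4 and 61.8 CPM in males; 39.9, 35.7 and 48.9 CPM in females).

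**Figure D4:**
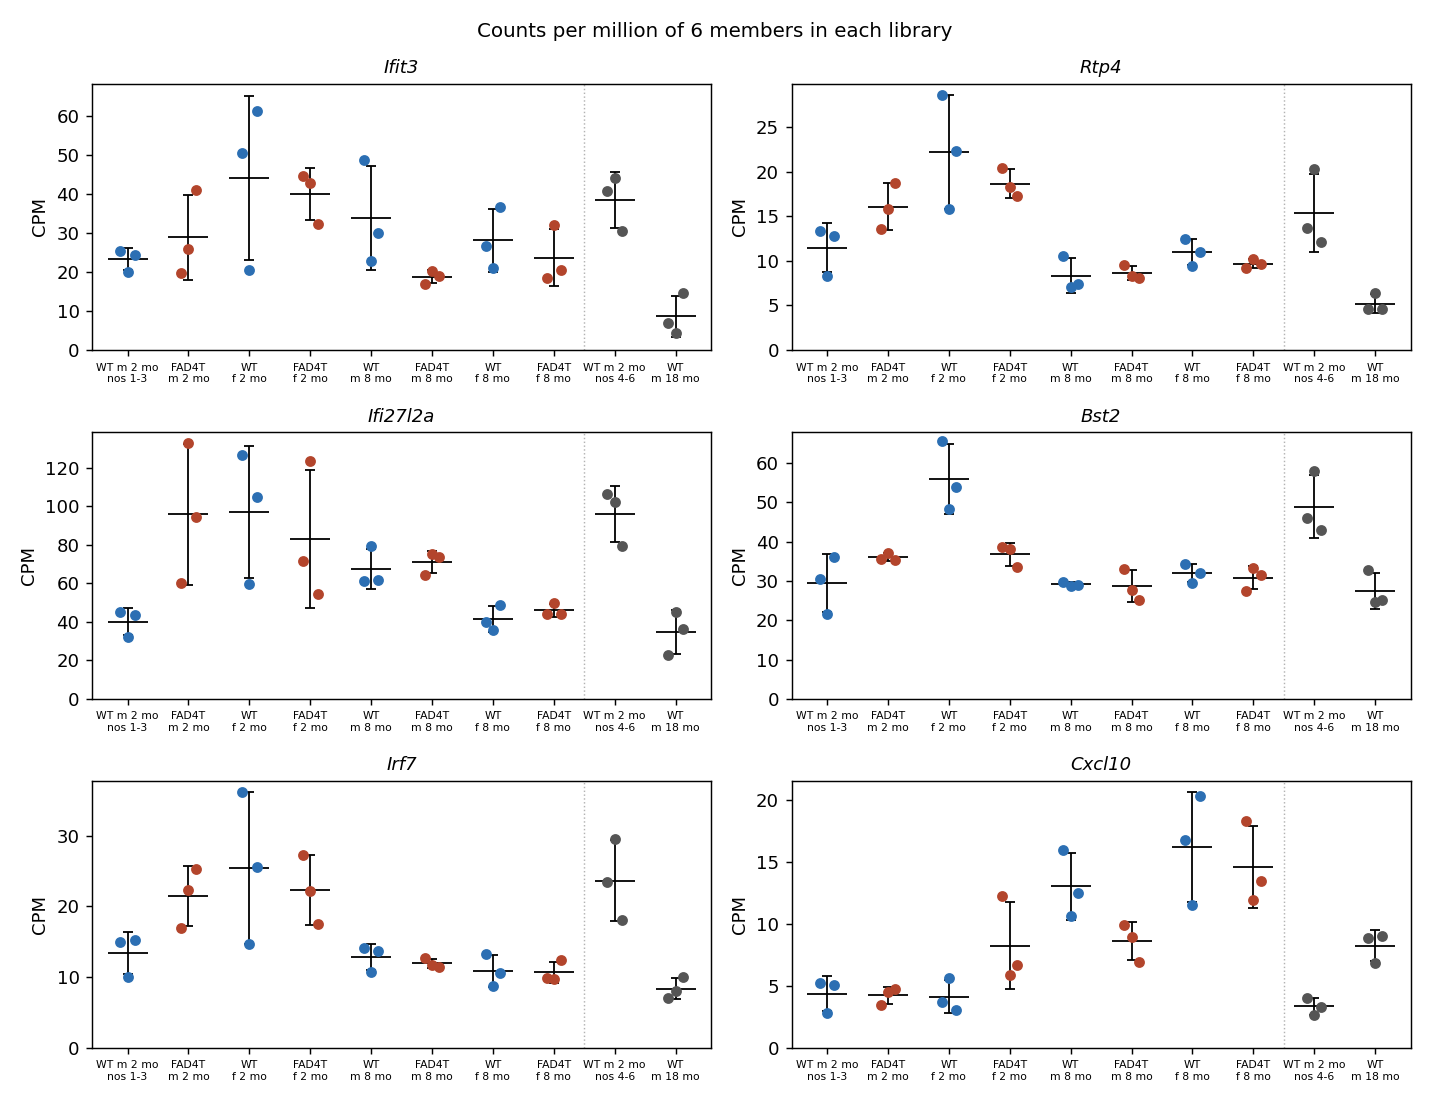
CPM of Ifit3, Rtp4, Ifi27l2a, Bst2, Irf7 and Cxcl10 in each library (points), with group mean and SD in black; blue, wild type; red, FAD4T; grey, ageing set. Ifit3, Rtp4, Ifi27l2a, Bst2 and Irf7 have their lowest group mean at 18 months. Bst2 overlaps between wild-type females of 2 months (65.6, 48.2 and 54.0) and wild-type males of 2 months of the ageing set (46.0, 58.0 and 42.9). Cxcl10 is the only one of the 6 that is higher at 8 and 18 months in wild-type mice of both sets.

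FAD4T was compared with wild type in each sex at each age, and no member was called by edgeR in any of the 4 comparisons. In males of 2 months 30 of 37 members were higher in FAD4T, with a median log2 fold change of 0.33 beside 0.02 over all genes. EdgeR called 0, as it called 0% of all 18493 genes, and 15 members were higher and 0 lower at an unadjusted p under 0.05, against 8.91% and 5.58% of genes. For 13 members each FAD4T library lay above each wild-type one and for 0 below, against 6.31% and 5.82% of genes. DESeq2 called 2, Ifi27l2a (adjusted p = 0.0115) and Zbp1 (0.0385), among 102 genes in all (0.552%).

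Ifi27l2a had the smallest p of the members in males of 2 months. It had 45.0, 31.8 and 43.5 CPM in wild type and 59.9, 132.7 and 94.3 CPM in FAD4T, a log2 fold change of 1.27 ± 0.30 (edgeR adjusted p = 0.343). Zbp1, a sensor of Z-form nucleic acid that can start necroptosis, had 0.949, 0.967 and 1.11 CPM in wild type and 1.93, 5.16 and 6.00 CPM in FAD4T (2.12 ± 0.56). Oas2 had 4.02, 3.29 and 4.32 CPM against 6.89, 13.3 and 12.2 CPM (1.49 ± 0.43). In all 3 genes FAD4T library 1 was the lowest of its group. The wild-type males numbered 4 to 6, which are not in this comparison, overlapped FAD4T in each of them, with 106.3, 102.2 and 79.3 CPM for Ifi27l2a, 1.36, 2.12 and 0.842 CPM for Zbp1 and 4.92, 7.44 and 3.79 CPM for Oas2. For Ifi27l2a the 2 wild-type sets differed by 1.23 (called, above), about as much as FAD4T from numbers 1 to 3. The dynamin-like antiviral GTPases Mx1 (1.61 ± 0.50) and Mx2 (1.02 ± 0.34) and the gene Ifi35 (0.55 ± 0.18) completed the 6 of smallest p, all at an adjusted p of 0.343. Mx1 carries an inactivating deletion in most laboratory strains.

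FAD4T libraries 2 and 3 were those of high thymocyte level (5.01 and 3.15, against 0.874 in library 1 and 0.650 to 0.717 in wild type). Summed CPM of the 9 thymocyte markers ran from 20.02 to 392.7 in the FAD4T males and from 14.1 to 23.6 in their controls, with no marker at 0. The level of the 4 plasmacytoid dendritic cell markers was 1.66 to 2.84 against 1.25 to 1.61. Tg took 15.2%, 8.86% and 6.68% of counts in FAD4T libraries 1 to 3 and 12.1%, 21.1% and 18.5% in wild type. Without the libraries of high thymocyte level, FAD4T library 1 alone was left in its group, and the median of the members was 0.24. That value rests on 1 FAD4T library. Without FAD4T library 1, 1 member was called, Ifi27l2a (adjusted p = 0.0477), and the share of all genes called in that fit is not given.

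In females of 2 months the direction was the reverse: 29 of 37 members were lower in FAD4T, with a median of -0.20 beside -0.02 over all genes. EdgeR called 0 members and 0% of genes, and at an unadjusted p under 0.05 3 members were higher (8.94% of genes) and 1 lower (7.75%). In 3 members the FAD4T libraries all lay above wild type and in 1 all below, against 6.0% and 3.93% of genes. DESeq2 called Bst2 and Irf1, beside 1.58% of genes. Bst2 had 65.6, 48.2 and 54.0 CPM in wild type and 38.7, 38.2 and 33.5 CPM in FAD4T, and the groups did not overlap (-0.61 ± 0.15, edgeR adjusted p = 0.153). Irf1, a factor induced by type II interferon, had 46.4, 43.5 and 39.1 CPM in wild type and 82.1, 69.6 and 66.4 CPM in FAD4T (0.75 ± 0.20, adjusted p = 0.153). Cxcl10 had 3.66, 5.61 and 3.06 CPM against 12.2, 5.84 and 6.67 CPM (1.0 ± 0.32, adjusted p = 0.184).

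The other 3 of the 6 with the smallest p in these females were Ddx58 (0.31 ± 0.14), Ifit1 (-0.80 ± 0.39) and Usp18 (-0.59 ± 0.29). The median changed sign without wild-type library 1 (0.03) and was -0.46 without wild-type library 2. Without FAD4T library 3, the only FAD4T female library of 2 months with a low thymocyte level (0.817), 4 members were called, 2 of them lower. Bst2 (adjusted p = 0.0391), Irf1 (0.0238) and Cxcl10 (0.033) were among them. How many of all genes were called in that fit is not given, so these 4 calls cannot be set against a share. Without the 2 libraries of high thymocyte level, FAD4T library 3 alone was left in its group and the median was -0.33. That value rests on 1 FAD4T library.

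The FAD4T difference in males minus that in females of 2 months was positive for 32 of 37 members, with a median of 0.61. EdgeR called 0 members and 0% of genes, and DESeq2 called 1, beside 0.178% of genes. At an unadjusted p under 0.05, 11 were positive and 1 negative (2.24% and 1.78% of genes). The smallest p was that of Bst2, at 0.91 ± 0.22 (adjusted p = 1). In FAD4T males, the change of the difference from 2 to 8 months was negative for 30 of 37 members, with a median of -0.50. EdgeR and DESeq2 called 0 members, against 0% and 0.0865% of genes, and 12 were negative at an unadjusted p under 0.05 (2.83% of genes). The corresponding test in females called 0 as well with edgeR and DESeq2, against 0% and 0.0865% of genes. At an unadjusted p under 0.05, 2 members were positive and 2 negative, against 3.59% and 4.63% of genes. Between the sexes at 8 months edgeR and DESeq2 called 0, against 0% and 0.0487% of genes. At that p 0 were positive and 1 negative, against 1.66% and 0.335% of genes.

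At 8 months FAD4T and wild type were close. In males the median was -0.11, and edgeR and DESeq2 called 0 members and 0 of all genes. At an unadjusted p under 0.05, 3 members were lower and 0 higher (0.768% and 1.04% of genes): Mx2 (-0.95 ± 0.34), Ifit1 (-0.97 ± 0.39) and Ifit3 (-0.85 ± 0.35). Ifit3 had 48.8, 22.8 and 30.0 CPM in wild type and 17.0, 20.4 and 18.9 CPM in FAD4T. Wild-type library 1 was the highest for Ifit1 and Ifit3. In males of 8 months 2 members lay wholly above and 4 wholly below wild type, against 5.22% and 5.58% of genes. Cxcl10 (-0.60 ± 0.31), Ifit3b (-0.63 ± 0.33) and Zbp1 (1.06 ± 0.55) had the next smallest p, all at an adjusted p of 1. In females the median was -0.03, and 0 members were called by edgeR or DESeq2 or had an unadjusted p under 0.05, while edgeR called 0.0216% of genes and 1.5% and 3.16% were higher and lower at that p. The FAD4T females lay wholly below wild type in 5 members and wholly above in 0, against 7.02% and 5.96% of genes. The 6 of smallest p were Trim25 (0.36 ± 0.22), Eif2ak2 (0.22 ± 0.15), Ifit3b (-0.46 ± 0.33), Dhx58 (-0.37 ± 0.26), Oasl1 (0.52 ± 0.39) and Ifi27 (-0.18 ± 0.14). Averaged over the 4 pairs of groups, 21 members were higher and 16 lower in FAD4T, with a median of 0.03. EdgeR and DESeq2 called 0 members, against 0% and 1.69% of genes. At an unadjusted p under 0.05, 4 were higher and 1 lower, against 8.98% and 6.46% of genes.

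**Figure D5:**
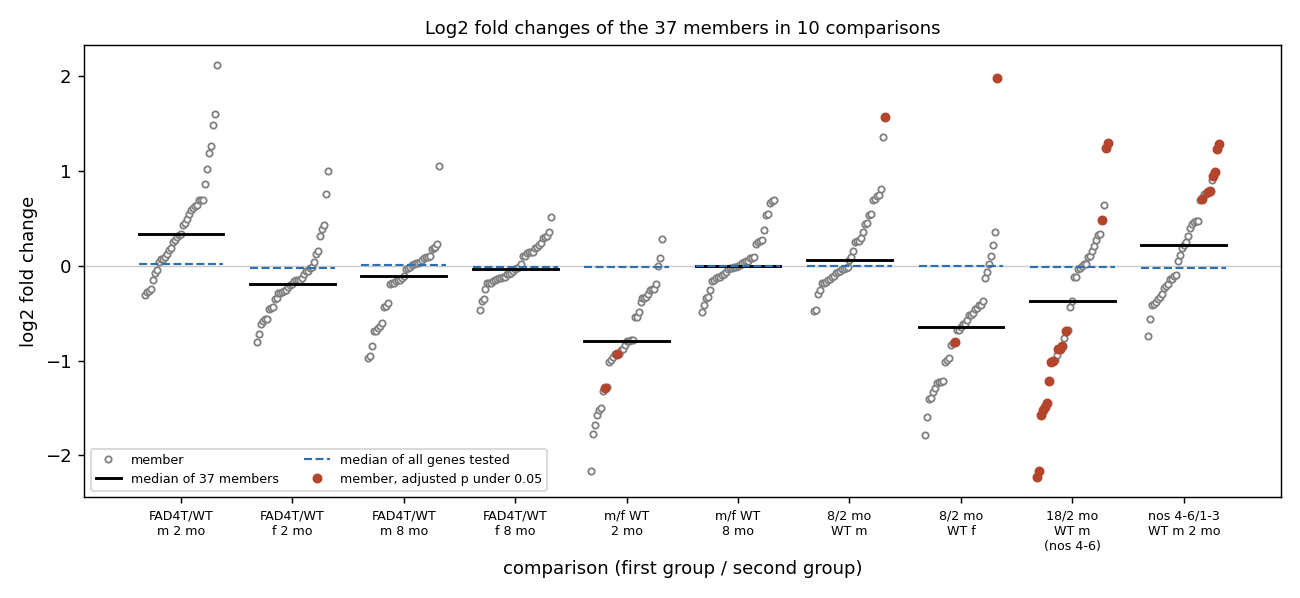
Log2 fold changes of the 37 members (circles, sorted within each comparison) in 10 comparisons, with red circles at an adjusted p under 0.05, black lines at the median of the members and dashed blue lines at the median of all genes tested. The members' median lies at -0.79 for males against females at 2 months and -0.64 for 8 against 2 months in females, and no circle is red in the 4 comparisons of FAD4T with wild type.

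Matches to the response element occurred on both sides of the change at 18 months. Of the 13 that fell, 9 had a promoter window and 5 of these held the core of the response element. Of the 3 that rose, all had a window and 2 held it. These shares were not tested.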

How the data were processed

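The authors deposited 1 table of raw counts per library, in whole read pairs, for 30 poly(A) thyroid libraries. Per the file headers they were made with featureCounts 1.6.0 over exons, without strand, on the Ensembl 88 annotation of GRCm38, from alignments named for STAR; the submitters' processing notes name HISAT2 2.0.4 and GRCm39 instead. Reads over exons of 2 genes are then ambiguous, which touches 11 members. Exon lengths are the deposited ones and serve RPKM only.

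Counts were tested in R 4.3.3 with edgeR 4.0.16 (TMM, filterByExpr with a minimum count of 10, robust glmQLFit, glmQLFTest, prior count 0.125, Benjamini-Hochberg over all genes tested, threshold 0.05), a mean per group. The 24 libraries of the FAD4T set (18493 genes), the 6 of the ageing set (16283) and, for numbers 4 to 6 against 1 to 3, all 30 (18799) were fitted apart. The standard error is the log2 fold change over the square root of F. Alternatives were DESeq2 1.42.0, its size factors, no filter, a replicate block, the compared groups alone and leaving out each library. The fit was also run on simulated counts with the same spread for every gene, smaller than the common spread of these data. That run does not show how many changes would be found here.

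Named members were all those called, the 6 of smallest p per FAD4T comparison and in ageing, and 2 to 4 more per role. One gene of the pathway list is not reported here. Members and lists were chosen with earlier results of these data known. The fits without the 5 thymocyte-rich libraries, the age by sex test and 18 months against numbers 1 to 3 were added after seeing the data. Pairing by replicate number was judged by the correlation of same-numbered deviations from the group means. Only in FAD4T against wild type in males of 8 months (0.42, 0.40 and 0.51) did each number match its own number best. FAD4T against wild type in females of 8 months (0.57, 0.29 and 0.04) and sex at 8 months (0.36, 0.39 and 0.10) matched so for numbers 1 and 2 but not 3.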

Additional observations from a re-analysis of the deposited data

How the results depend on the processing

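Counts of called members depended most on the tool and on single libraries in the 2-month groups. DESeq2 called 2 for FAD4T males and 2 for FAD4T females of 2 months, 14 for 8 against 2 months in females, 14 for sex at 2 months, 1 for the FAD4T difference between sexes at 2 months and 4 for the age change between sexes. Without a filter on low counts, 8 against 2 months in females gave 5 and 18 months against numbers 1 to 3 gave 2. Fitting only the groups compared gave 2 for 8 against 2 months in males, 0 for the same in females, 0 for sex at 2 months and 2 for 18 months against numbers 1 to 3. For the fits without the filter and with only the groups compared, the share of all genes called is not given here. Those counts cannot be set against it. In each case the cause was not tested.

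Leaving out 1 library in turn gave counts of 0 to 1 for FAD4T males and 0 to 4 for FAD4T females of 2 months, and 0 to 1 for the average FAD4T effect. It gave 0 to 1 for 8 against 2 months in males, 0 to 10 for the same in females and 0 to 13 for sex at 2 months. It gave 11 to 16 for 18 against 2 months, 4 to 7 for numbers 4 to 6 against 1 to 3 and 1 to 5 for 18 months against numbers 1 to 3. The share of all genes called in each of these fits is not given, so none of these counts can be set against it. Where 1 library was left, it was assumed to vary like the other groups.

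With the replicate block, 8 against 2 months in females gave 5 calls, where the numbers share only a label. How many of all genes were called with the block is not given here, so these calls cannot be set against a share. For FAD4T against wild type in males of 8 months, where each number matched its own number best, the block left 0 calls. The labels do not say that libraries of the same number were paired. The block changed no other count. No paired analysis was possible for 18 against 2 months because the groups share no numbers. No named member reversed. Members below 1 RPKM rest on few counts, as few as 3 for Oas3 in a library, which limits their folds.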
